A study of Mus musculus with 14 samples.

Results

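The organic anion and cation transporters described here are the products of 3 gene families: Slco, the organic anion transporting polypeptides, Slc22, which holds the organic anion, organic cation and carnitine transporters, and Slc47, the multidrug and toxin extrusion exchangers. Members were all genes of the liver and kidney count tables whose symbol begins with one of these family names and a number, and no expression value entered the choice. There were 36 such genes among the 22263 genes of the 2 tables, 10 of them Slco, 24 Slc22 and 2 Slc47. Of these, 30 were listed for both tissues, Slc47a2 and Slco1c1 for liver only, and Slc22a13, Slc22a14, Slc22a19 and Slco4c1 for kidney only. After a filter on low counts 22 members were tested in liver, 31 in kidney and 29 in the fit of both tissues. The untested members were Slc22a2, Slc22a6, Slc22a8, Slc22a12, Slc22a13b, Slc22a22, Slc47a2, Slco1a6, Slco1c1 and Slco4a1 in liver, each at 1.38 CPM or less, and Slc22a13b, Slc22a14 and Slc22a27 in kidney, each at 0.569 CPM or less.

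The RNA came from adult male mice of 12 weeks. All were transgenic for human angiotensinogen (haplotype -6A), so the normal diet mice are transgenic too, and no mice without the transgene were analysed here. They were fed a normal diet or one high in salt. Liver was sequenced in 4 libraries per diet and kidney in 3 libraries per diet. The salt dose, the time on the diet, the strain, the sites where the transgene is active and whether a liver and a kidney came from the same mouse are not given in the sources used here.

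Slco and Slc22 proteins carry bile acids, steroid conjugates, prostaglandins, urate, carnitine and many drugs across the plasma membrane. Hepatocytes take such compounds from portal blood through sinusoidal Slco and Slc22 proteins and pass them to bile. Proximal tubule cells take organic anions and cations from blood across the basolateral membrane and release them to urine across the apical membrane, where Slc47a1 exchanges cations for protons.

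Libraries are named by diet, ND for normal diet and HS for high salt, and by the number in the sample title or column. Levels are counts per 1000000 counts of the library (CPM), scaled within a tissue. Liver libraries held 37267778 to 51487382 counts and kidney libraries 16046094 to 22004927. The 2 tissues carried their markers, but not every marker was confined to its organ. The summed level of 5 liver markers was 49169 to 76839 CPM in normal diet liver and 87460 to 105744 CPM in high salt liver. In kidney this sum was 825 to 1296 CPM on the normal diet and 1422 to 1625 CPM on high salt. Umod, a thick ascending limb gene, lay at 1014 to 1823 CPM in kidney and reached at most 1.41 CPM in liver. The podocyte gene Nphs1 was at 83.1 CPM in liver ND4 and 23.5 to 57.8 CPM in the other normal diet livers. Markers of the last proximal tubule segment summed to 770 to 971 CPM in normal diet liver and 4915 to 6441 CPM in normal diet kidney. Some libraries stood apart. Liver ND1 and ND2 held 2.30% and 2.06% of counts from the mitochondrial genome, against 11.3% to 29.6% in the other 6 liver libraries. Liver ND4 held the acute phase gene Saa1 at 16237 CPM, against 71.3 to 387 CPM in the other normal diet livers. Liver HS5 and HS6 differed by a median of 0.092 on the log2 scale over all genes tested, against 0.22 to 0.34 for the other pairs of high salt livers. Kidney ND1 differed from ND2 and ND3 by 0.57 and 0.60 on that scale, while ND2 and ND3 differed by 0.18.

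On the normal diet many members differed between the organs. In the fit of both tissues by edgeR's quasi-likelihood test, 25 of the 29 members tested passed an adjusted p of 0.05, and 65.1% of all 16633 genes did. Kidney was higher for 16 members and liver for 9, where 32.2% of all genes were higher in kidney and 32.9% in liver. A difference of at least 5 on the log2 scale that passed the test was found for 10 members, with a background of 5.66% of genes. Slc22a2, Slc22a6, Slc22a8, Slc22a12, Slc22a22, Slco1a6 and Slco4a1, all higher in kidney, did not pass the filter on low counts in liver. They entered this fit only through the kidney libraries, where they are higher, and all but Slco4a1 are among the 10. For this reason the counts of 25, 16 and 10 members are not read against the background. Each organ had its own count table, so tissue and table cannot be told apart in these values. Because the RNA came from whole tissue, fewer cells of a type and less RNA per cell cannot be told apart either.

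**Figure D1:**
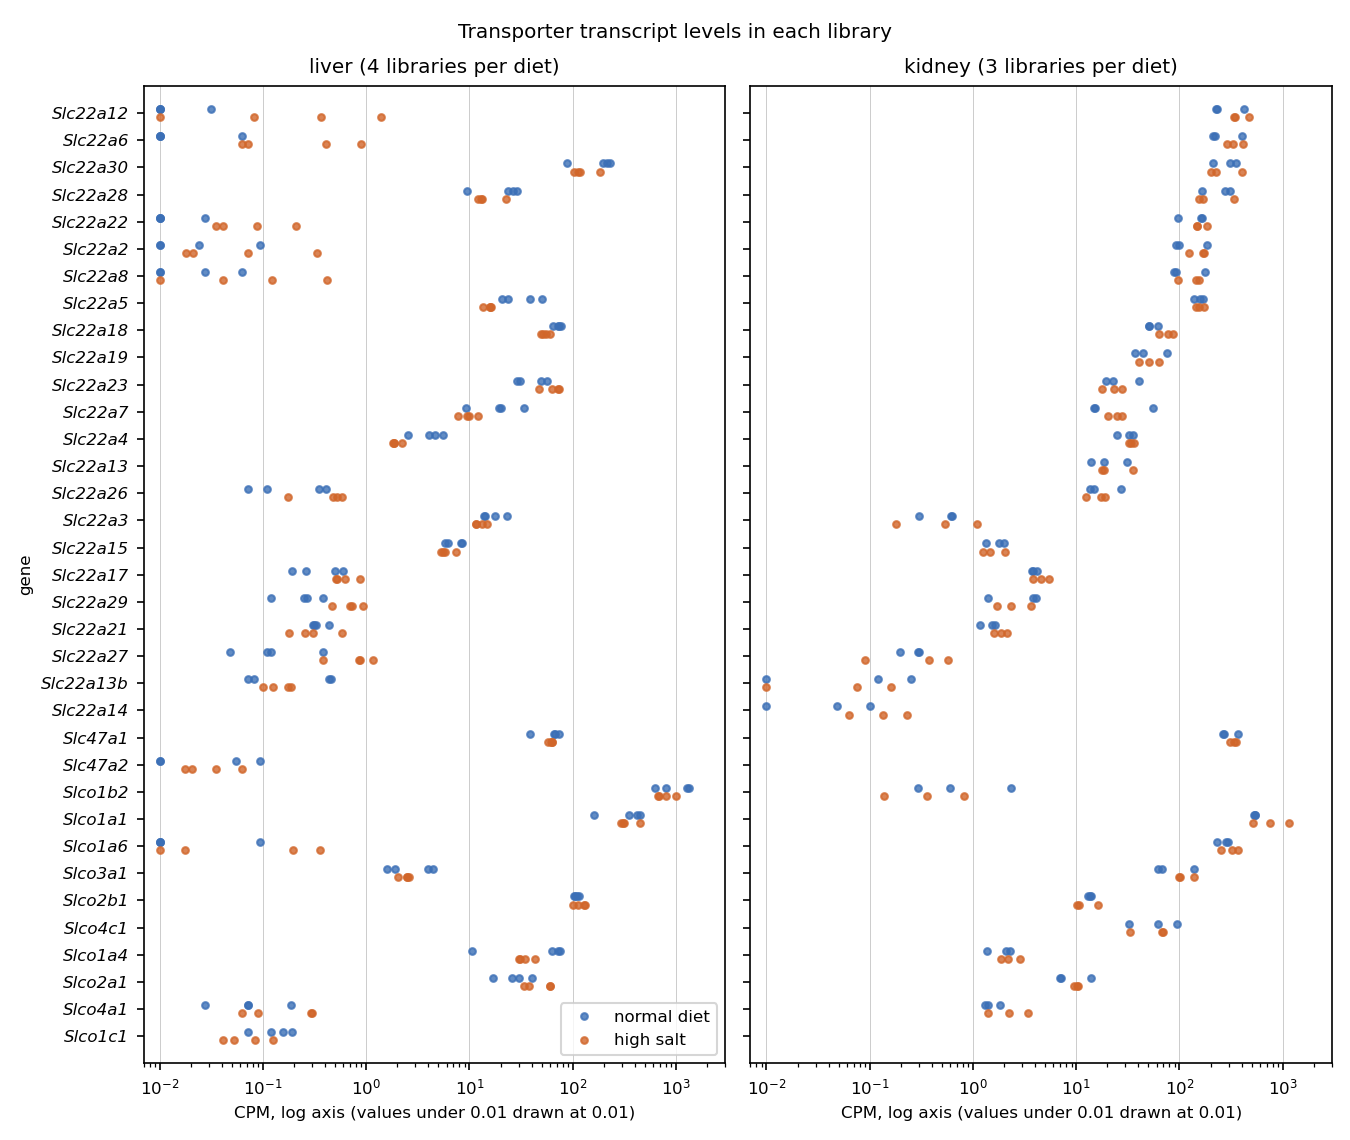
Level of 35 members in CPM on a log axis, in 8 liver libraries (left) and 6 kidney libraries (right). Points are single libraries, blue for normal diet and orange for high salt, and members not listed for a tissue have no points there. Slco1b2 lies between 621 and 1347 CPM in liver and reaches at most 2.34 CPM in kidney, and Slc22a12 shows the opposite, with 225 to 466 CPM in kidney.

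Slco1b2 had the highest level per kilobase of exon among the members in liver, at a mean of 183 CPM per kilobase over the 8 libraries with a range of 126.04 to 273. It is a hepatocyte transporter for the uptake of bile acids and bilirubin. Slco1a1, an anion transporter of male liver and kidney, was at 65.0 CPM per kilobase with a highest library of 85.1, which lay below every library of Slco1b2. Slc22a30 at 46.2 and Slc22a18 at 36.97 CPM per kilobase overlapped their neighbours in the order, and Slc22a18 in turn lay above Slco2b1 at 19.02 in every library. Slc47a1 stood at 18.1 CPM per kilobase.

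The liver-sided members were led by Slco1b2. It was at 1274, 1347, 805 and 621 CPM in normal diet livers ND1 to ND4. In kidney it was at 0.600, 2.34 and 0.290 CPM in ND1 to ND3. Every liver library lay far above every kidney library. The difference was -10.46 on the log2 scale (kidney over liver, SE 0.80, adjusted p = 2.7e-08 by edgeR). The kidney library with the most Slco1b2, ND2, was also the one with the most Alb, the albumin gene of hepatocytes, at 35.7 CPM against 2.70 to 10.9 CPM in the other kidneys. The share of the kidney's Slco1b2 counts that comes with these liver transcripts was not tested.

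Slco1a4, a carrier of digoxin and bile acids, differed by -5.42 (kidney over liver on the log2 scale, SE 0.58), and Slc22a3, the extraneuronal monoamine transporter, by -5.57 (SE 0.41). Slc22a3 overlaps the abundant liver gene Plg, on the opposite strand, by 426 bases. Slco2b1, a carrier of steroid sulfates, was at 109, 106, 115 and 103 CPM in normal diet livers and at 13.1, 13.5 and 13.7 CPM in normal diet kidneys. These levels were tight within each organ and did not overlap. The other members higher in liver were, for example, Slc22a15, Slco2a1, Slc22a23 and Slc22a18, with differences of -2.62 to -0.94. Each of the 9 liver-sided differences had an adjusted p of at most 0.0043 by edgeR.

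**Figure D2:**
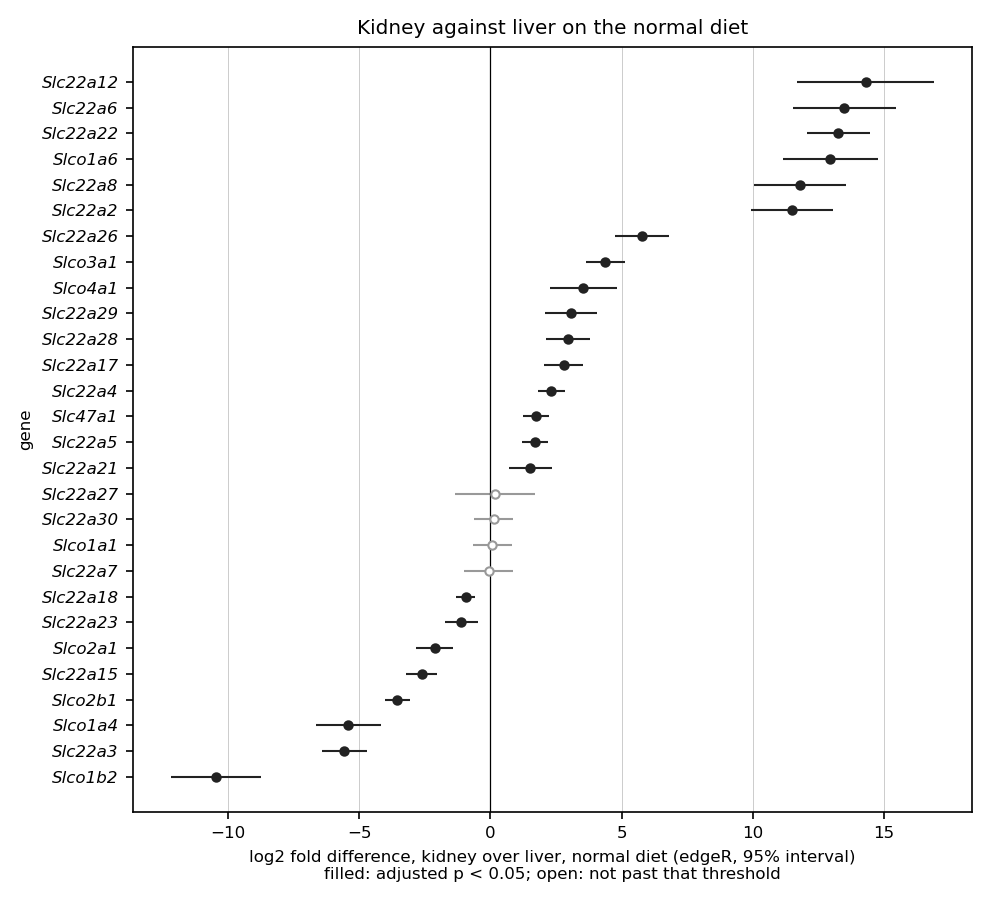
Difference between kidney and liver on the normal diet for 28 members tested, as a log2 fold difference with its 95% interval from edgeR (3 kidney and 4 liver libraries). Filled points passed an adjusted p of 0.05 and the 4 open points did not. The 6 members at the top had 1 to 4 counts in all normal diet livers together, so their fitted values depend on the prior count.

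Kidney levels per kilobase were led by Slc22a12, the apical urate exchanger of the proximal tubule, at a mean of 149 CPM per kilobase with a range of 99.2 to 206 over the 6 libraries. Slco1a1 at 127, Slc22a28 at 118, Slc47a1 at 93.4, Slc22a30 at 84.3, Slc22a6 at 78.3 and Slco1a6 at 76.6 CPM per kilobase followed. Each of these overlapped the next in the order, so no neighbours were separated beyond the spread of the libraries.

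The kidney-sided members include the basolateral uptake transporters and the apical urate exchanger. Slc22a6 and Slc22a8, the basolateral organic anion transporters that exchange 2-oxoglutarate for drugs and anions, had 2 and 3 counts in the 4 normal diet livers together, against 16209 and 6957 in the 3 normal diet kidneys. Slc22a12 had 1 count against 16998, Slc22a22, a prostaglandin carrier, 1 against 8111, Slco1a6 3 against 15536, and Slc22a2, the renal organic cation transporter, 4 against 7257. After scaling for depth the pooled ratio of kidney over liver was 14680 for Slc22a6, with a 95% counting interval of 4063 to 121227. It was 4200 for Slc22a8, with an interval of 1437 to 20373, and 9380 for Slco1a6, with an interval of 3209 to 45491. The intervals cover counting error only. Slc22a12 lies inside Nrxn2 on the opposite strand, and whether strand was used in counting is not given in the sources used here.

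In high salt livers a few reads of these kidney members appeared together with another kidney gene. Slc22a2, Slc22a6, Slc22a8, Slc22a12, Slc22a22 and Slco1a6 summed to 0, 2, 11 and 1 counts in livers ND1 to ND4 and to 8, 12, 173 and 71 counts in HS5 to HS8. Umod was at 0, 0, 11 and 1 counts in the same normal diet livers and at 2, 3, 68 and 27 counts in the high salt livers. Both were highest in HS7 and second in HS8. Kidney RNA in these livers was not tested as a source.

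The promoters of Slc22a12, seen almost only in kidney, of Slc22a3, a liver-sided member, and of Slc22a30, which did not differ past the test between organs, are shown because these genes span the organ difference and their promoters hold the same element. Each sequence is the 250 bases before the RefSeq start site (GRCm38.p6), 5′ to 3′ on the gene's strand, and capitals mark the HNF4 element CAAAGT or its complement ACTTTG. HNF4 is a nuclear receptor of liver and proximal tubule. The genes lie on the minus strand, Slc22a12 at chr19:6543071-6543320, Slc22a3 at chr17:12507705-12507954 and Slc22a30 at chr19:8405106-8405355.
Slc22a12: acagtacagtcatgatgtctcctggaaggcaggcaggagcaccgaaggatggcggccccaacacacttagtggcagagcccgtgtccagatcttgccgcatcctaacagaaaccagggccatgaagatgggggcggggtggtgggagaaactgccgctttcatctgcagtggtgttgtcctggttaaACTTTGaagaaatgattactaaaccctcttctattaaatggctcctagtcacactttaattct
Slc22a3: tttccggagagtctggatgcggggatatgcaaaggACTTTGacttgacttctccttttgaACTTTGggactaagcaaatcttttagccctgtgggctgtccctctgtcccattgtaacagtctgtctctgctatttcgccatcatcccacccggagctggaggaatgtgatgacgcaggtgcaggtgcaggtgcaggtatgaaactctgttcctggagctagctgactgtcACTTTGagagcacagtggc
Slc22a30: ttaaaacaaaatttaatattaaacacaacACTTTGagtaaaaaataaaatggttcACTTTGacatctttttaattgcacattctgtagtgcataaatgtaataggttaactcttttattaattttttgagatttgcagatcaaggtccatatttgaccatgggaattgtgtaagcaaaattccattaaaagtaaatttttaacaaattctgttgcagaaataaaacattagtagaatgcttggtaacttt
Counted from the start site, with -1 for the base before it, the element begins at -63 in Slc22a12, at -215, -190 and -19 in Slc22a3, and at -221 and -195 in Slc22a30. RefSeq promoters were found for 30 of the 36 members. Searched on both strands over 300 bases, from 250 before to 50 after the start site, CAAAGT or its complement was in 6 of these 30, the others being Slc22a19, Slc22a28 and Slco1a6, and in 12.9% of 13596 mouse promoters. The nuclear receptor half-site AGGTCA or its complement was in 4 of 30, namely Slc22a14, Slc22a27, Slco1a1 and Slco1b2, and in 13.4% of all promoters. A match describes letters in this window and not binding.

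Slc22a2 and Slc22a3, which differed in organ, are neighbours on chromosome 17, with a gap of 76427 bases and no other gene of the tables between them. Slc22a3 differed by -5.57 on the log2 scale, and Slc22a2 was seen almost only in kidney. Slc22a4, the ergothioneine transporter, and Slc22a5, the carnitine transporter, lie on chromosome 11 with Slc22a21 and were higher in kidney by 2.32 (SE 0.24) and 1.70 (SE 0.24). Slc47a1 was higher in kidney by 1.74 (SE 0.23), at 67.02, 65.6, 73.5 and 38.8 CPM in normal diet livers and 369, 268 and 261 CPM in normal diet kidneys. Its neighbour Slc47a2, 540 bases away, had between 0 and 0.0944 CPM in liver.

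Slco1a1, Slc22a30, Slc22a27 and Slc22a7 did not pass the test between organs. Slco1a1 differed by 0.075 (95% interval -0.66 to 0.81) and Slc22a30 by 0.13 (-0.62 to 0.88), so differences of about that width remain possible. Slc22a7, a carrier of nucleotides and small organic anions, rested on 1 library: kidney ND1 had 55.1 CPM against 14.7 and 15.2 CPM in ND2 and ND3. Without kidney ND1 Slc22a7 was lower in kidney, by -1.003 on the log2 scale (adjusted p = 0.025 by edgeR), where 63.2% of all genes passed. Without liver ND4 the difference was 0.24, and without kidney ND2 or ND3 it was 0.23 or 0.27. No direction is read from these values.

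Members in the row of Slc22 genes on chromosome 19 share long stretches of sequence. Slc22a28 shares 53.9% of its 50-base words with other genes, mostly Slc22a30, and Slc22a30 shares 36.1%. Slc22a27 and Slc22a29 each share 30.5%, and Slc22a5 shares 27.1%, mostly with Slc22a21. How reads were divided within these groups is not certain. Taken as 1 sum, Slc22a19 and Slc22a26 to Slc22a30 held 479, 642 and 730 CPM in normal diet kidneys and 452, 827 and 429 CPM in high salt kidneys, and the diets overlapped.

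In liver no member passed the test for high salt against the normal diet. By edgeR's quasi-likelihood test, 0 of 22 members had an adjusted p under 0.05, with 1.00% of all 15130 genes past it. At an unadjusted p under 0.05 there were 9 members of 22, against 21.2% of all genes: 5 were lower on high salt, among them Slc22a4, Slc22a5, Slc22a7 and Slc22a18, where the background is 11.3%, and Slc22a23, Slc22a27, Slc22a29 and Slco2a1 were higher, where it is 9.83%. The diets did not overlap for 6 members, with 12.5% of all genes showing no overlap: 4 were lower on high salt, against 6.03%, and 2 were higher, against 6.42%. The median change over the members was -0.28 on the log2 scale, against -0.023 over all genes. With DESeq2, 7 members passed an adjusted p of 0.05, with a background of 7.42%, and voom with sample weights called 15, where it called 54.8% of all genes.

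Summed by family, the Slc22 members held 928, 954, 732 and 670 CPM in normal diet livers and 506, 508, 569 and 546 CPM in high salt livers. The sums did not overlap between the diets. The Slco members summed to 1936, 1957, 1391 and 932 CPM in normal diet livers and 1217, 1207, 1639 and 1277 CPM in high salt livers, and overlapped. These sums are given with no test. The summed liver markers did not overlap between the diets either, with 1 of the 5 higher and 1 lower at an unadjusted p under 0.05, and their part in the member values was not tested.

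Slc22a4 (chr11:53983123-54028090) was at 4.61, 5.56, 4.09 and 2.55 CPM in normal diet livers and at 1.81, 1.87, 1.85 and 2.23 CPM in high salt livers. The diets did not overlap, and the lowest normal diet value was that of ND4. The change was -1.11 (SE 0.25, adjusted p = 0.072 by edgeR), and without ND4 it was -1.30 with an adjusted p of 0.027. ND1 and ND2, the livers with few mitochondrial counts, held the highest values, and without both of them the change was -0.77 (adjusted p = 0.20). Slc22a5 (chr11:53864542-53891660), which brings carnitine into cells, was at 23.7, 20.8, 38.2 and 50.5 CPM in normal diet livers and at 16.03, 15.9, 15.8 and 13.5 CPM on high salt. Here ND3 and ND4 were the high libraries, the reverse of Slc22a4. The change was -1.12 (SE 0.27, adjusted p = 0.077 by edgeR), and without ND1 and ND2 it was -1.53 with an adjusted p of 0.013. Slc22a4, Slc22a5 and Slc22a21 together held 28.6, 26.6, 42.6 and 53.5 CPM in normal diet livers and 18.02, 18.1, 17.9 and 16.3 CPM on high salt. Slc22a21 reached at most 0.579 CPM in liver, so the sum follows Slc22a4 and Slc22a5. That it did not overlap between the diets follows from those genes and adds no support.

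**Figure D3:**
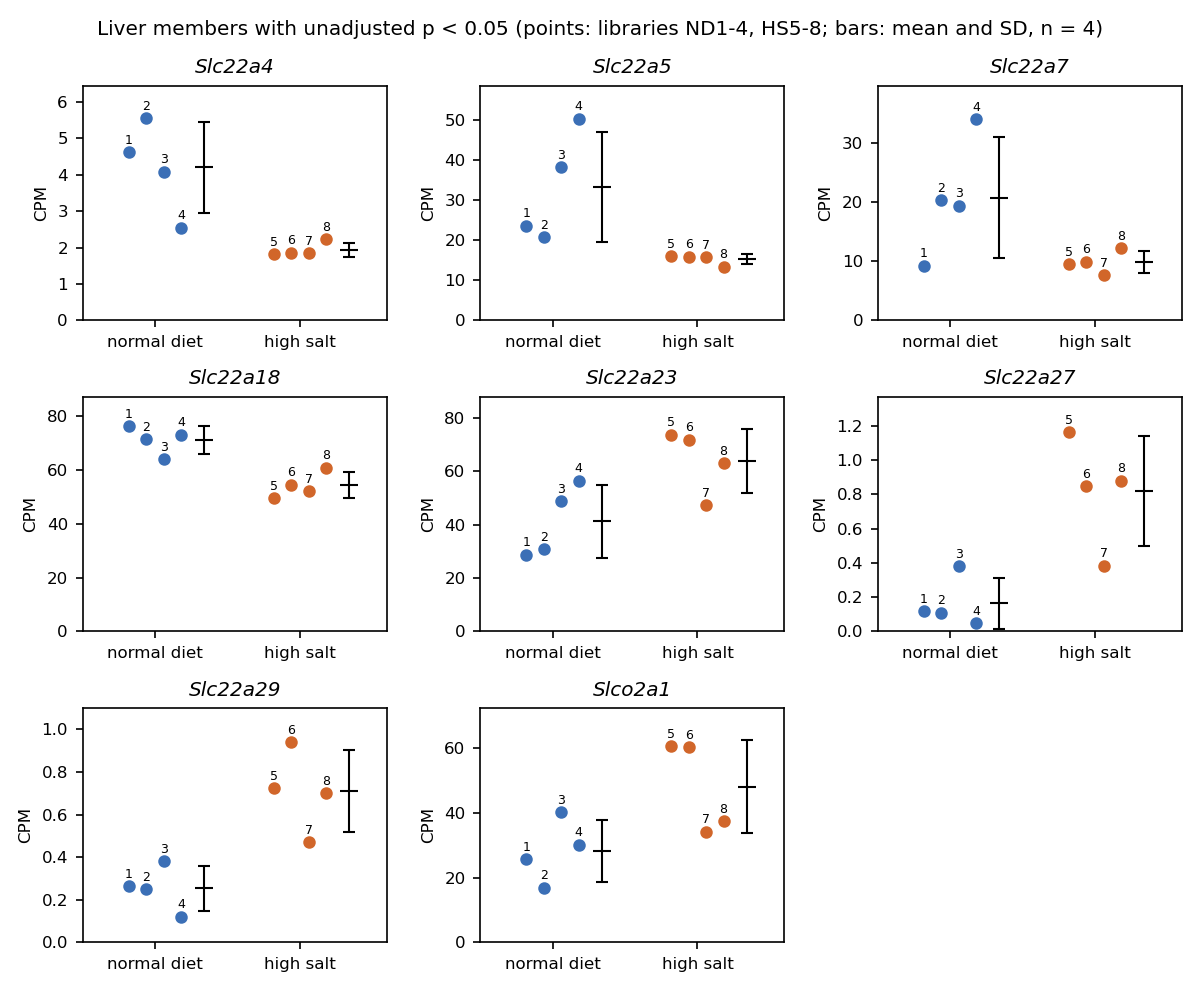
Liver levels in CPM of 8 members with an unadjusted p under 0.05, by diet. Points are libraries, numbered ND1 to ND4 and HS5 to HS8, and bars are means with SD (n = 4 per diet). None passed an adjusted p of 0.05 by edgeR, and the high salt livers of Slc22a4 and Slc22a5 lie close together below all normal diet livers.

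Slc22a18, a polyspecific transporter of an imprinted region, was at 76.4, 71.5, 64.1 and 73.2 CPM in normal diet livers and at 49.6, 54.6, 52.2 and 60.9 CPM on high salt. Its groups were tight and did not overlap, and the change was -0.39 (SE 0.13, adjusted p = 0.16 by edgeR). Slc22a7 was at 9.22, 20.2, 19.3 and 34.003 CPM against 9.53, 9.93, 7.67 and 12.2 CPM, so ND1 lay among the high salt livers. Slc22a7 changed by -1.07 (SE 0.34, adjusted p = 0.13 by edgeR). Slc22a3 was at 14.1, 13.8, 17.7 and 23.3 CPM against 11.7, 11.7, 14.7 and 13.3 CPM, so HS7 lay above ND1 and ND2, and changed by -0.42 (95% interval -0.86 to 0.01).

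Among the members with higher means on high salt, Slco2a1, the prostaglandin transporter, was at 25.6, 16.8, 40.1 and 30.2 CPM on the normal diet and at 60.4, 60.2, 34.1 and 37.4 CPM on high salt. Only HS5 and HS6, which are nearly alike in all genes, lay above every normal diet liver. The change was 0.77 (SE 0.29, adjusted p = 0.18 by edgeR). Slc22a23, an orphan member, was at 28.7, 30.9, 48.8 and 56.4 CPM against 73.6, 71.7, 47.1 and 62.9 CPM, and changed by 0.63 (SE 0.25, adjusted p = 0.19). All 4 endothelial markers also had fold changes above 0, 1 of them at an unadjusted p under 0.05, with a summed level of 23.5 to 62.5 CPM on the normal diet and 38.2 to 66.4 CPM on high salt. Their part in the Slco2a1 and Slc22a23 values was not tested. Slc22a27 and Slc22a29, both rodent-specific anion transporters, did not overlap between the diets, but lay at 0.0482 to 0.379 and 0.121 to 0.381 CPM on the normal diet and at 0.384 to 1.17 and 0.471 to 0.942 CPM on high salt. They had means of 24.8 and 23.3 counts per library and share much of their sequence. Both passed the test by edgeR when ND3 was left out, where 4.94% of all genes passed.

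Several abundant members of liver showed no diet difference beyond their spread. Slco1b2 was at 1274, 1347, 805 and 621 CPM on the normal diet against 688, 671, 1013 and 798 CPM on high salt, a change of -0.35 (95% interval -0.98 to 0.27). Slco1a1 was at 449, 422, 355 and 163 CPM against 306, 311, 446 and 292 CPM, a change of -0.035 (-0.71 to 0.64). Slco1a4 was at 76.0, 63.2, 72.2 and 10.6 CPM against 30.6, 30.3, 43.2 and 34.7 CPM. Its high salt livers lay below ND1 to ND3 and above ND4, and without ND4 the change was -1.03 with an adjusted p of 0.033 by edgeR, against -0.68 and 0.43 with it. Slco2b1 was at 130, 132, 100 and 112 CPM on high salt and changed by 0.13 (-0.19 to 0.46). Slc22a30 was at 213, 230, 195 and 87.1 CPM against 113, 103, 185 and 117 CPM. Only ND4 among the normal diet livers lay below any high salt liver, and the change was -0.48 (-1.17 to 0.20). Slc47a1 was at 61.9, 57.3, 62.4 and 63.6 CPM on high salt and changed by 0.0015 (-0.43 to 0.44).

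Liver ND4, the library with the acute phase genes high, held many members outside the range of the other normal diet livers. Its level was 0.151 of the mean of ND1 to ND3 for Slco1a4, 0.358 for Slc22a28, 0.398 for Slco1a1, 0.410 for Slc22a30, 0.544 for Slco1b2 and 0.564 for Slc47a1. It was 1.83 times that mean for Slc22a5, 1.56 times for Slc22a23 and 2.09 times for Slc22a7. The summed level of the immune markers was 172 CPM in ND4, 75.4 to 122 CPM in ND1 to ND3 and 47.7 to 87.4 CPM on high salt. The neutrophil markers S100a8 and S100a9 were at 18.2 and 31.7 CPM in ND4 and at no more than 0.654 CPM in ND1 to ND3. The part of these transcripts in the member values was not tested.

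In kidney no member passed the diet test. By edgeR 0 of 31 members had an adjusted p under 0.05, as did 0.00% of all 15847 genes, and DESeq2, voom with sample weights and limma on the deposited normalized values also called 0 members. At an unadjusted p under 0.05 there was 1 member, Slc22a18, against 2.01% of all genes (1.27% higher and 0.732% lower on high salt), and it was also the 1 member whose diets did not overlap, where 6.88% of all genes do not (3.84% higher and 3.04% lower). Slc22a18 (chr7:143473736-143499334) was at 61.5, 50.3 and 50.3 CPM in normal diet kidneys and at 77.8, 63.7 and 86.1 CPM on high salt. The lowest high salt kidney, HS2, lay just above ND1. The change was 0.49 on the log2 scale (SE 0.20, 95% interval 0.024 to 0.96), with an adjusted p of 1.00 by edgeR. The fold change was above 0 for 20 of 31 members, against 46.3% of all genes, and the median was 0.16, against -0.025.

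Summed by family, the Slc22 members of kidney held 2259, 1911 and 2029 CPM in normal diet libraries and 2147, 2365 and 2288 CPM in high salt libraries, and the Slco members 959, 975 and 1027 CPM and 1278, 1706 and 965 CPM. Both sums overlapped between the diets.

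The kidney uptake transporters varied more within the normal diet than between the diets. Slc22a6 was at 404, 219 and 212 CPM in normal diet kidneys and at 412, 291 and 333 CPM on high salt. Slc22a8 was at 177, 93.5 and 88.1 CPM against 146, 97.7 and 156 CPM. Slc22a12 was at 419, 225 and 232 CPM against 342, 336 and 466 CPM. In each, ND1 stood among or above the high salt kidneys, while ND2 and ND3 lay below all of them. Slc22a2 was at 183, 98.3 and 92.5 CPM against 168, 124 and 173 CPM and had the same order. Slc47a1, the apical exchanger that works in series with Slc22a2, was at 369, 268 and 261 CPM against 334, 310 and 355 CPM. The fitted changes of these 5 genes lay between 0.15 and 0.39, with 95% intervals that reached down to -0.59 and up to 1.08.

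**Figure D4:**
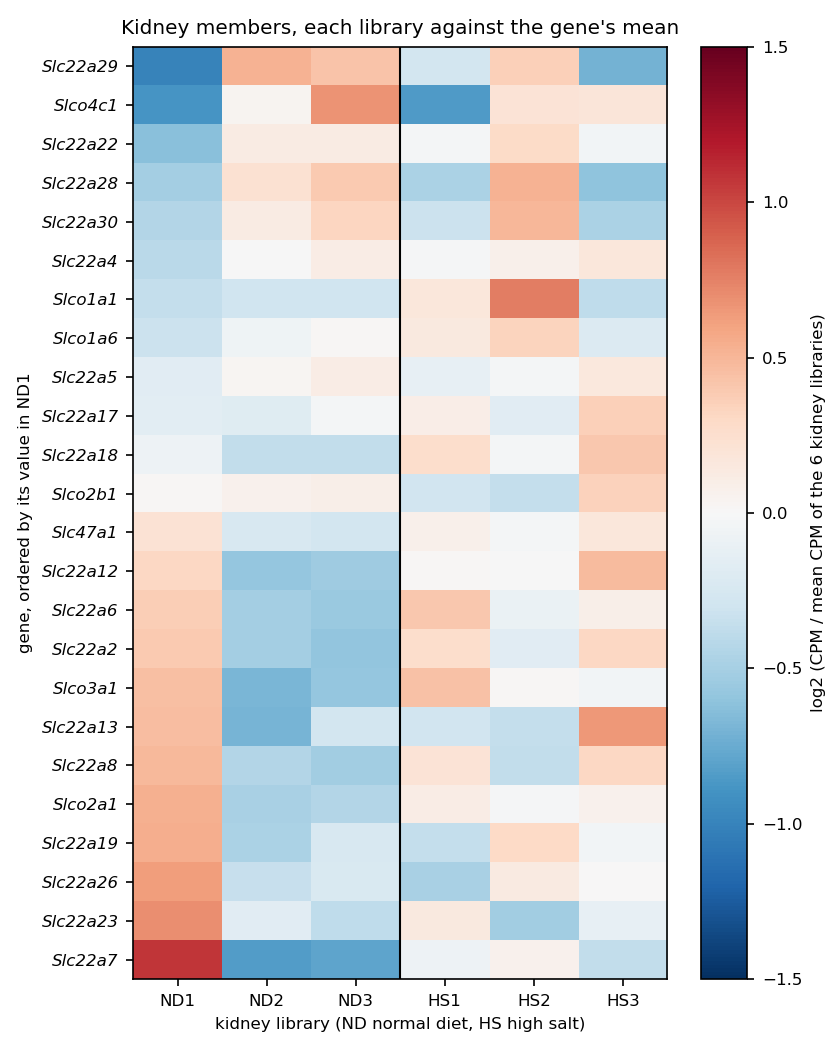
Kidney level of members with a mean of at least 50 counts (24 members shown), as log2 of the CPM over the member's mean in the 6 kidney libraries. Columns are libraries, members are ordered by their value in ND1, and the black line divides the diets. ND1 is above the mean for the lower 12 members, where ND2 and ND3 are below it, and HS2 is above the mean for Slc22a28, Slc22a30 and Slco1a1.

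ND1 split the kidney members in both directions. Its level was 3.68 times the mean of ND2 and ND3 for Slc22a7, 2.12 times for Slco3a1, 1.95 times for Slc22a8, 1.92 times for Slc22a2, 1.88 times for Slc22a6 and 1.83 times for Slc22a12. It was 0.358 of that mean for Slc22a29, 0.413 for Slco4c1, 0.564 for Slc22a28, 0.595 for Slc22a22 and 0.630 for Slc22a30. Among the proximal tubule markers Lrp2 was 2.10 times and Cubn 1.76 times that mean in ND1, while Slc5a2 was 0.736 of it and Slc7a13 was 1.04 times it. The podocyte gene Nphs1 was 0.182 of it. The 6 markers of the first segments of the proximal tubule summed to 1955 to 2927 CPM on the normal diet against 2053 to 2300 CPM on high salt. The part of the sampled kidney region in these values was not tested. Without ND1 there were 8 members at an unadjusted p under 0.05, namely Slc22a2, Slc22a6, Slc22a7, Slc22a8, Slc22a12, Slc22a18, Slco2a1 and Slco3a1. Their fold changes were 0.52 to 0.79. At an adjusted p under 0.05 there were 0 members, and 0 of all 16146 genes. The share of all genes at the unadjusted threshold was not counted without ND1, so no result about the members is read from the 8.

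Slco1a1 varied widely among the high salt kidneys. It was at 526, 545 and 544 CPM in normal diet kidneys and at 758, 1143 and 517 CPM on high salt. HS3 lay below all normal diet kidneys, HS1 and HS2 above them. The change was 0.58 (95% interval -0.11 to 1.27). It was 0.24 without HS2 and 0.82 without HS3, where the unadjusted p by edgeR was 0.018 and the adjusted p 1.00. HS2 also held the highest kidney values of Slc22a28 and Slc22a30. Slc22a28 was at 166, 278 and 311 CPM on the normal diet against 170, 340 and 155 CPM on high salt, and Slc22a30 was at 209, 308 and 356 CPM against 227, 400 and 204 CPM. These 2 genes share sequence and ranked the 6 libraries in the same order. Of the other members of kidney, Slc22a22 lay at 97.2 to 183 CPM, Slc22a19 at 37.4 to 75.4 CPM, Slc22a13, a urate and nicotinate exchanger, at 13.9 to 35.5 CPM and Slc22a26 at 12.5 to 26.9 CPM, each overlapping between the diets. Slco4c1, a basolateral carrier of digoxin and thyroid hormone, was at 32.5, 62.0 and 95.6 CPM against 33.2, 69.0 and 67.9 CPM, so both diets held 1 low library. Slco1a6 was at 233, 279 and 296 CPM against 323, 367 and 252 CPM. Slc22a7 was at 24.8, 27.5 and 20.4 CPM on high salt, between ND1 and the other normal diet kidneys. Slco3a1, a carrier of prostaglandins and thyroxine, was at 137.5, 62.6 and 67.1 CPM against 137, 102.3 and 98.0 CPM, and Slco2a1 was at 13.99, 6.91 and 7.16 CPM against 10.5, 9.58 and 10.1 CPM. Both repeated the pattern of a high ND1 above low ND2 and ND3. The low members of kidney overlapped between the diets as well: Slco1a4 lay at 1.36 to 2.84 CPM, Slco2b1 at 10.1 to 16.4 CPM, Slc22a17 at 3.75 to 5.46 CPM and Slco1b2 at 0.136 to 2.34 CPM over the 6 libraries. Slc22a5 was at 139, 159 and 169 CPM against 143, 154 and 175 CPM, a change of 0.014 (95% interval -0.44 to 0.47).

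Slc22a18 had fold changes on opposite sides of 0 in the organs, and the difference between them was tested as an interaction. In the fit of both tissues, 0 of 29 members passed an adjusted p of 0.05 by edgeR, with 0.00% of all genes past it. At an unadjusted p under 0.05 there were 9 members of 29, against 10.1% of all genes. DESeq2 called 2, Slc22a18 and Slc22a4, where it called 0.89% of all genes. The change in liver less the change in kidney was -0.88 for Slc22a18 (SE 0.24, adjusted p = 0.25), -1.28 for Slc22a4 (SE 0.34, adjusted p = 0.23) and -1.11 for Slc22a5 (SE 0.34, adjusted p = 0.30). The values of Slc22a6, Slc22a12 and Slc22a22 rested on the few liver counts given above, most of them in HS7 and HS8, and no difference is read from them.

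**Figure D5:**
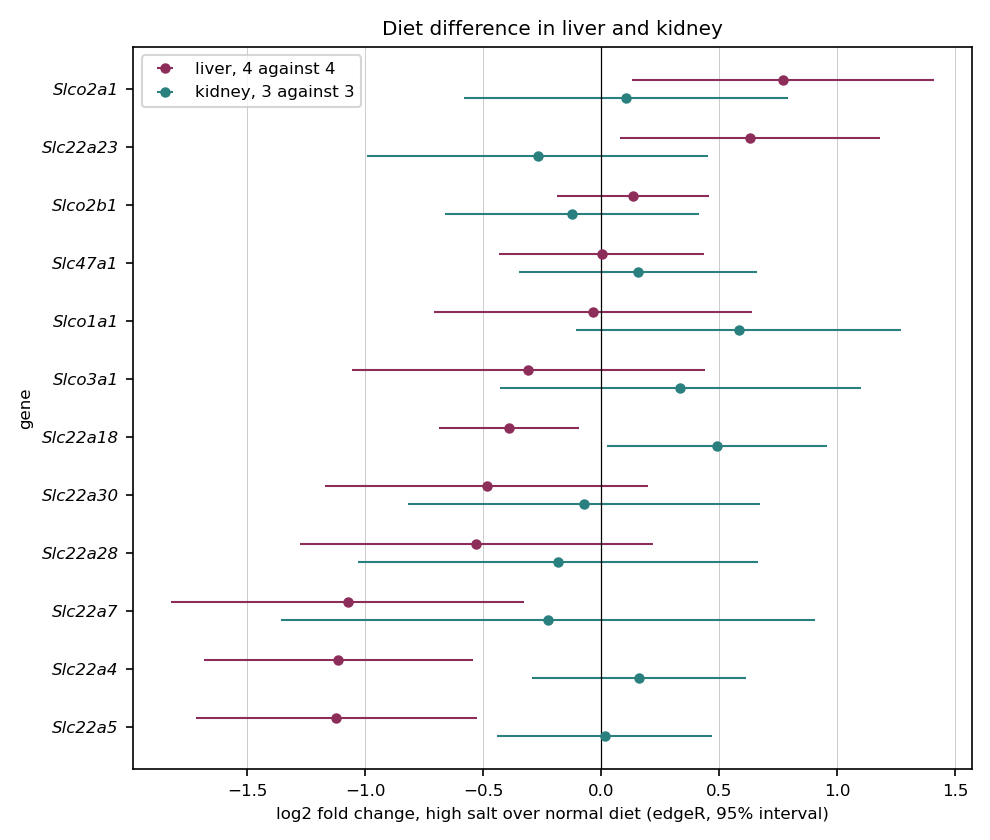
Change on high salt in liver (4 libraries per diet) and kidney (3 per diet) for 12 members tested in both with a mean of at least 50 counts in each, as log2 fold changes with 95% intervals from edgeR. Members are ordered by the liver value. Slc22a4 and Slc22a5 lie near -1 in liver and near 0 in kidney, and Slc22a18 lies at -0.39 in liver and 0.49 in kidney, but no interaction passed an adjusted p of 0.05 by edgeR.

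Genes that work with these transporters were taken from 5 lists. Beside the list counts for liver, 1.00% of all genes passed an adjusted p of 0.05 by edgeR. An unadjusted p under 0.05 was found for 21.2% of all genes, and 48.0% lay above 0. Of 7 carnitine genes tested in liver, 1 passed the diet test and was higher: Crat, which moves acetyl groups between carnitine and coenzyme A, rose from 12.6 ± 3.06 to 32.5 ± 9.87 CPM (SD, n = 4 per diet), a change of 1.37 (SE 0.26, adjusted p = 0.045 by edgeR). Whether Crat passes under other settings or with a library left out was not tested. The other 6 did not pass and 0 of them lay above 0, with Slc25a20, the mitochondrial carnitine carrier, at -0.38 (adjusted p = 0.26) and Aldh9a1, an enzyme of carnitine synthesis, at -0.32 (adjusted p = 0.39). Of 16 nuclear regulators tested in liver 0 passed by edgeR, 3 had an unadjusted p under 0.05 and 11 lay above 0.

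The list of efflux partners also holds Slc10a1, a bile acid uptake carrier. Of the 13 genes of this list tested in liver 0 passed by edgeR, 2 had an unadjusted p under 0.05 and 12 lay above 0. Abcc6 was at 0.47 (adjusted p = 0.16) and Abcc3, a basolateral exporter of conjugates, at 0.35 (adjusted p = 0.22). Of 9 apical and urate partners 0 passed, 4 had an unadjusted p under 0.05 and 7 lay above 0, led by Slc17a4, an anion exporter, at 0.74 (adjusted p = 0.063) and Slc9a3r2, a scaffold protein, at 0.56 (adjusted p = 0.14). Of 7 genes of the dicarboxylates that anion transporters exchange 0 passed and 1 had an unadjusted p under 0.05, with Slc13a3, the dicarboxylate cotransporter that feeds this exchange, at -0.98 (adjusted p = 0.077). The list medians were 0.22 for the regulators, 0.35 for efflux, 0.37 for apical and urate genes, 0.39 for the dicarboxylate genes and -0.18 for the carnitine genes, beside -0.023 over all genes.

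Among all genes of kidney 0.00% passed the diet test by edgeR and 2.01% had an unadjusted p under 0.05. In kidney 0 of the 48 genes tested on these lists passed, each adjusted p was 1.00 by edgeR, and 1 had an unadjusted p under 0.05. This was Abcb1b, an efflux pump for cationic drugs, at 4.87 ± 1.05 CPM on the normal diet against 12.8 ± 4.51 CPM with salt (SD, n = 3 per diet), a change of 1.39 (SE 0.30). Abcc4, the apical exporter of organic anions and cyclic nucleotides, changed by 0.43, Slc17a4 by 0.64, Xdh by -0.26, Nr1h4 by 0.33, Ahr by -0.37, Slc13a3 by 0.35, Slc25a10 by 0.32, Cpt2 by 0.39 and Aldh9a1 by 0.19. The list medians in kidney lay between 0.041 and 0.19, beside -0.025 over all genes.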

How the data were processed

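RNA of liver and kidney was prepared with the RNeasy mini plus kit and sequenced from SMARTER libraries, per the labels' protocols. The submitters' processing notes name Partek 7.0, STAR 2.5.3a, DESeq2 and mouse build mm10, with no role for each. The authors deposited expected counts per gene for each tissue, in which reads that match several genes were divided: 58.2% of liver and 63.8% of kidney values are whole numbers, and every gene totals at least 10 counts. The authors also deposited normalized values, used here as signal: in liver they equal the counts times 1 factor per library, and the kidney table is a separate quantification of 24399 genes, against 20203 in the counts. The high salt liver columns, numbered HS5 to HS8, match no sample title and were assigned by diet only. All 14 libraries were used and 0 columns were left out.

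Expected counts were rounded and tested with edgeR 4.0.16 in R 4.3.3: TMM scaling, filterByExpr, quasi-likelihood test, and Benjamini-Hochberg adjustment over all genes tested, in each tissue and in 1 fit of both for the difference between organs and the interaction. Log2 values in the text are high salt over normal diet unless named otherwise, and SE and 95% intervals come from the edgeR fit. Intervals of pooled count ratios are exact and cover counting error only. Levels per kilobase use the union of exons in GENCODE M21. Alternatives used DESeq2 1.42.0 and limma 3.58.1. The scripts were tested on simulated data. The sources do not say that the replicates are separate mice, so p-values measure only the spread between these samples, which may be technical. Some genes are not reported here. Values in every library were given for the 8 members per tissue with the smallest p and a mean of at least 50 counts, the 8 with the highest CPM and a fixed group of 15, of which low ones are given as ranges. The members, the gene lists and the tests were chosen with earlier results of these data known.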

Additional observations from a re-analysis of the deposited data

Results flagged for a closer look

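In 6 of the 36 groups of 4 liver libraries checked, 1 library lay far from the other 3, by a gap that takes up most of the range of the group. A rate of 1 in 20 would give 1.8, but that rate takes libraries and genes as independent. Liver HS5 and HS6 are nearly alike in all genes, and Slc22a28 and Slc22a30 share sequence. The 6 are therefore not read against it. All 6 were among high salt livers. HS7 held the highest Slc22a28 at 22.5 CPM, the highest Slc22a30 at 185 CPM, the highest Slco1a1 at 446 CPM and the lowest Slco3a1 at 2.04 CPM. HS8 held the highest Slc22a4 at 2.23 CPM and the lowest Slc22a5 at 13.5 CPM. HS7 and HS8 are also the livers with the most counts of kidney transcripts, and the part of these in the values was not tested. Kidney groups of 3 were not checked.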

How the results depend on the processing

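In liver the count of 0 members past the test held under RLE and upper quartile scaling, no filter, a filter of 10 counts in every library, scaling without mitochondrial genes, limma on the normalized values with pseudocounts of 1 and 0.1, and with HS5 and HS6 summed. It was 7 with DESeq2, where 7.42% of all genes passed, and 15 with voom and sample weights, where 54.8% did. With all 14 libraries in 1 fit it was 2 (Slc22a4 and Slc22a5), where 1.56% of all genes passed. Without ND1 and ND2 it was 1 (Slc22a5), where 0.327% did. With 1 library left out it was 0 to 3, where 0.0779% to 4.94% of all genes passed. The count was 3 without ND3 (4.94%) and without ND4 (2.68%). Over all alternatives the adjusted p ranged from 0.00023 to 0.25 for Slc22a4 and from 0.0037 to 0.24 for Slc22a5. In kidney the count was 0 throughout. The interaction gave 2 with DESeq2, where 0.89% of all genes were called, and 0 otherwise. Between organs the count was 25, except 13 of 16 tested with the filter of 10 counts and 25 to 26 with 1 library left out. Over these settings 57.5% to 66.2% of all genes passed. The causes were not tested.

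Whether the numbers of the kidney libraries pair them is not certain. Deviations of same-numbered libraries correlated at 0.41, 0.37 and -0.090. Those of libraries with unlike numbers correlated at -0.47 to 0.39. With the number as a block 0 kidney members passed and 1 had an unadjusted p under 0.05. For liver and for the interaction no such block was possible, because of unmatched numbers in liver.

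Direction turned only in results whose 95% interval held 0. In liver, Slc47a1 (0.0015) was -0.0069 with RLE, -0.0068 with DESeq2, -0.0077 with no filter, -0.0061 without mitochondrial genes, -0.12 with voom, -0.00031 with all 14 libraries, and -0.18 to 0.089 with 1 library left out. Slco1a1 was 0.0049 with upper quartile scaling, 0.035 on the normalized values with either pseudocount, 0.0055 with HS5 and HS6 summed, 0.39 without ND1 and ND2, and -0.28 to 0.10 with 1 library left out, and Slco1b2 was 0.15 without ND1 and ND2. In kidney with voom, Slc22a5 was -0.043 and Slc22a7 0.58. On the normalized values Slc22a5 was -0.011 and Slc22a7 0.048 with either pseudocount, and with the replicate block Slc22a7 was 0.057. Leaving out 1 kidney library gave -0.068 to 0.080 for Slc22a5, -0.54 to 0.70 for Slc22a7, -0.022 to 0.55 for Slc22a8, -0.074 to 0.52 for Slco2a1, -0.38 to 0.0025 for Slco2b1 and -0.48 to 0.26 for Slco4c1. Between organs Slc22a7 was 0.022 with RLE and DESeq2, 0.21 with upper quartile scaling, 0.12 with the filter of 10 counts and -1.003 to 0.27 with 1 library left out, Slco1a1 was -0.17 to 0.24, and the interaction of Slc22a3 was -1.04 to 0.029.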
